A study of Homo sapiens with 60 samples.

Results

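The genes described here are a list of 40 that belong to the amino acid stress program of the transcription factor ATF4: the factor and its partner regulators, the serine synthesis enzymes, the folate-linked one-carbon enzymes, other amino acid enzymes, amino acid carriers and a few further targets. Each was taken by its symbol on the array, and where a gene had several probe sets the one with the highest mean stood for it. Values were found for 39 of the 40 genes, among 19775 genes of the array, and GPT2 was not analysed here. RNA was measured on 60 Affymetrix U133 Plus version 2 arrays in 3 human breast cell lines. SKBR3 is a line from a mammary adenocarcinoma that overexpresses the receptor HER-2, C5.2 is HB4a transfected with a full-length HER-2 cDNA, and HB4a is a line from normal breast epithelium. Cells of each line received rapamycin (20 nM) together with doxorubicin (30 nM), rapamycin alone, doxorubicin alone, or only the DMSO vehicle, with 5 arrays from separate experiments in each of the 12 groups. Rapamycin inhibits the kinase complex mTORC1, and the anthracycline doxorubicin damages DNA by way of topoisomerase II. Every line grew in RPMI medium with serum and glutamine, and insulin and hydrocortisone were added for C5.2 and HB4a but not for SKBR3, so a line difference and a medium difference cannot be told apart for SKBR3. How long the drugs were applied, and whether C5.2 is 1 clone, is not given in the sources used here.

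ATF4 is made mainly by control of translation: when amino acids are short, or the endoplasmic reticulum is stressed, kinases phosphorylate eIF2 alpha, and the ATF4 mRNA is then read more often while most others are read less. mTORC1 is also known to raise ATF4 output, in part through translation and mRNA stability. The ATF4 protein pairs with C/EBP proteins and binds C/EBP-ATF response elements, which turn on genes that make amino acids, charge them onto tRNA and bring them into the cell. Breast cancers are known for variable use of the serine branch, and PHGDH lies in a chromosome region that some of them carry in extra copies. The arrays measure RNA only, so the amount of ATF4 protein was not measured.

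Because ATF4 acts through a short DNA element, the element's core TGATGNAA was searched on both strands in the RefSeq promoter windows of the human build GRCh38.p14, which reach from 250 bases before to 50 bases after each gene's start. A window was found for 33 of the 40 genes, and 8 of the 33 windows (24.2%) held the core, against 3.67% of all 27305 windows. The 5 genes whose match lay wholly before the start follow here with 26 bases on each side, 5' to 3' on the strand of the gene, and the capitals mark the core or its reverse complement. They show which members carry this element in the window, and a match is a description of the letters and not a measured binding site.
ASNS (asparagine synthetase, minus strand, chr7:97872443-97872502): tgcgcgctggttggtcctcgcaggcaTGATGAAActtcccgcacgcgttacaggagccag
CHAC1 (a glutathione-cleaving enzyme, plus strand, chr15:40953236-40953295): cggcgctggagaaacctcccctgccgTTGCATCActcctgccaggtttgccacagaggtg
GOT1 (cytosolic aspartate aminotransferase, minus strand, chr10:99430789-99430848): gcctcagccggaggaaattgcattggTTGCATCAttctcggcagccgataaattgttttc
HERPUD1 (a membrane protein of endoplasmic reticulum protein degradation, plus strand, chr16:56931940-56931999): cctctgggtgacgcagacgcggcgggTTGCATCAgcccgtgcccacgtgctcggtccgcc
MTHFD1L (mitochondrial formate-tetrahydrofolate ligase, plus strand, chr6:150866331-150866390): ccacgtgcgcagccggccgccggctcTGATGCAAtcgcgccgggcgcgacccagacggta

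The other 3 windows with the core (SLC38A1, SLC3A2 and SLC7A1) held it across or after the start. The promoter of HERPUD1 also carried the endoplasmic reticulum stress response element ERSE-II, searched on both strands and not overlapping the core. It stood in 1 of the 33 windows and in 0.0549% of all windows. The longer element ERSE, searched likewise, was in 0 of the 33 windows and in 0.0806% of all windows.

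All values below are log2 probe set values, differences are in log2 units with the standard error (SE) of the fit, and n is 5 arrays a group. A gene was tested if 5 or more of the arrays fitted together had a value above 5, and it rose or fell where limma's 2-sided p, adjusted by Benjamini-Hochberg over all genes tested, was under 0.05. Array medians lay between 1.41 and 1.71, and these medians were taken as background. ERBB2, which encodes HER-2, averaged 11.48 in vehicle-treated SKBR3, 12.06 in C5.2 and 6.67 in HB4a. Of the 21 markers fixed for other cell types and for the lines, 18 were found. The epithelial genes KRT8, KRT18, KRT19 and EPCAM averaged 6.34 or more in vehicle in every line. CDH1 lay between 0.25 and 5.06 on the vehicle arrays of SKBR3, the highest being array 3, and averaged 5.57 in C5.2 and 9.27 in HB4a. The basal keratin KRT5 averaged 1.79 in SKBR3 and 7.01 in C5.2, against 10.07 in HB4a, and KRT14 was 1 or less. Of the fibroblast genes, DCN averaged 1.32 in SKBR3 and 6.01 in C5.2, against 7.42 in HB4a, while COL1A1 lay between 4.13 and 4.46 and COL1A2 and LUM at 1.24 or less. The leukocyte gene PTPRC averaged 0.63 or less, CD3E 2.53 or less, and CD14 0.76 in SKBR3 and 4.49 in C5.2, against 2.48 in HB4a. The endothelial genes PECAM1, CDH5 and VWF averaged 3.11 or less. Some of these moved with the drugs: in C5.2, both drugs against vehicle gave means of 4.47 against 6.01 for DCN, 5.06 against 7.01 for KRT5 and 5.97 against 7.84 for KRT19. In HB4a they were 6.53 against 7.42, 8.48 against 10.07 and 9.33 against 10.47 for the same genes. Their part in the line and drug differences was not tested. In bulk RNA, fewer cells that express a gene and less RNA per cell cannot be told apart. SKBR3 vehicle array 3, array 1 of every SKBR3 and HB4a group, HB4a rapamycin array 4 and array 2 of every C5.2 group stood apart in earlier looks at these data, and losses of the calls described here are given beside them.

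Of the 39 genes, 28 passed the filter in at least 1 line and 11 did not in any. Rapamycin lowered PHGDH, PSAT1 and ASNS in SKBR3 and C5.2, and PSPH in C5.2, while PSPH lay below the filter in SKBR3. In HB4a PHGDH, PSAT1 and ASNS were not called with rapamycin in the main fit and were called lower when arrays were blocked by experiment. With the filter at log2 7 and no block, 0 members rose and 2 fell there with rapamycin (5.41% of all genes called). Quantile normalization likewise gave 0 and 2 (3.87%), and all 60 arrays in 1 fit gave 2 and 2 (4.25%). Without the block, doxorubicin alone moved few members, and ATF4 mRNA itself was called in 0 of 9 comparisons with vehicle. The block called 9 of 26 members with doxorubicin in HB4a, where 32.7% of all genes were called. It also called ATF4 lower with rapamycin in SKBR3, as given below. Over the 9 comparisons without the block, 49 of 225 member tests were called, 39 lower and 10 higher, and 20 members were called at least once. Between 0.837% and 22% of all genes were called in the same comparisons, so the pooled count is not read without the shares given below. The comparisons within a line share its vehicle arrays. With rapamycin, 0 members rose and 5 fell of 24 tested in SKBR3 (median difference -0.19, all genes -0.03, 18.3% of all genes called, 7.48% higher and 10.8% lower). In C5.2, 2 rose and 10 fell of 25 (median -0.30, all genes -0.08, 17.4% of all genes called, 2.83% higher and 14.6% lower), and in HB4a 1 rose and 0 fell of 26 (median -0.08, all genes 0.01, 3.18% called, 2.08% higher and 1.1% lower). With both drugs, 1 rose and 6 fell in SKBR3 (22% of all genes called, 8.35% higher and 13.6% lower), 2 rose and 10 fell in C5.2 (21% called, 6.42% higher and 14.6% lower), and 2 rose and 7 fell in HB4a (17.4% called, 10.9% higher and 6.49% lower). With doxorubicin alone, limma called 0 of 24 in SKBR3 (0.837% of all genes, 0.669% higher and 0.167% lower, and 1 member at an unadjusted p under 0.05), 1 of 25 rose in C5.2 (3.26% called, 2.84% higher and 0.413% lower), and 1 rose and 1 fell of 26 in HB4a (11.4% called, 8.66% higher and 2.77% lower). With rapamycin 48% of the members tested in C5.2 were called, above the 17.4% of all genes. In SKBR3 20.8% were called, near the 18.3% of all genes called either way, and only the share of lower calls lay above its background. With the filter at log2 7, 20% of the members in SKBR3 were called, against 27.6% of all genes. The count of 2 in HB4a with doxorubicin does not lie above its background.

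Experiment numbers paired the arrays for the single drugs in HB4a and C5.2 and for every SKBR3 comparison. With that number as a block, 1 member rose and 11 fell of 24 with rapamycin in SKBR3, while 41.8% of all genes were called in the same fit. With both drugs in SKBR3, 3 rose and 7 fell of 24, and this share of 41.7% lies below the 50.5% of all genes called. In C5.2 with rapamycin 2 rose and 15 fell of 25, while 44.2% of all genes were called. With doxorubicin 3 of 24 were called in SKBR3 (5% of all genes) and 4 of 25 in C5.2 (17.4% of all genes). In HB4a 2 rose and 8 fell of 26 with rapamycin (16.3% of all genes called), and 3 rose and 6 fell with doxorubicin (32.7% of all genes). A blocked fit of HB4a without the combined group, added after the data were seen, called 9 of 25 with rapamycin (21.8% of all genes) and 10 with doxorubicin (37.6% of all genes). The blocked counts for doxorubicin in HB4a and C5.2 lie near these shares. Every member called without the block was also called with it.

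**Figure D1:**
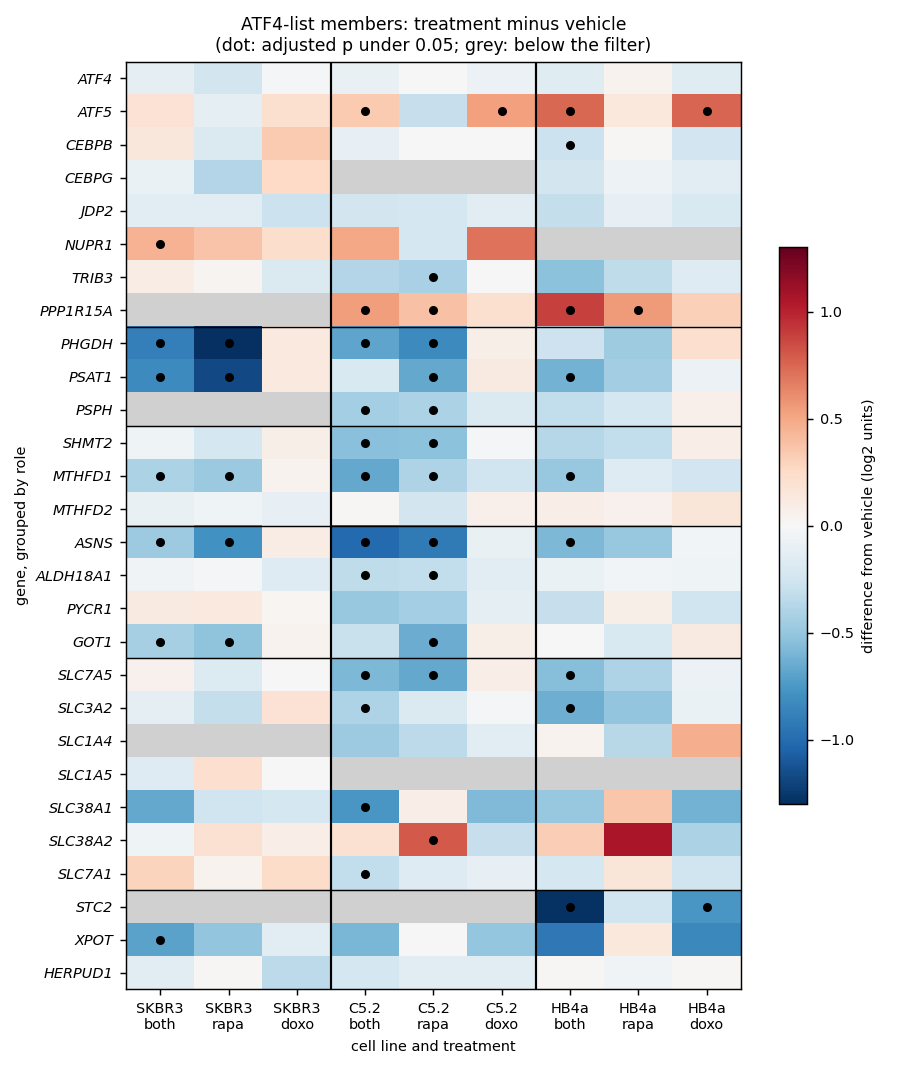
Differences from vehicle in log2 units for the 28 tested members (rows, grouped by role) in the 3 treatments of SKBR3, C5.2 and HB4a (columns). A dot marks an adjusted p under 0.05 and grey marks a gene below the filter in that line, and the darkest blue cells are PHGDH and PSAT1 with rapamycin in SKBR3 and STC2 with both drugs in HB4a.

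PHGDH, PSAT1 and PSPH catalyse the successive steps from 3-phosphoglycerate to serine. In SKBR3 both tested enzymes fell with rapamycin and with both drugs, and in C5.2 all 3 fell with rapamycin. PHGDH, the entry enzyme, read 4.40, 4.29, 4.23, 4.43 and 4.27 on the rapamycin arrays of SKBR3, against 5.61, 5.84, 5.64, 5.37 and 5.63 on its vehicle arrays. Every rapamycin array lay below every vehicle array, and the difference was -1.29 ± 0.13 (SE, limma adjusted p = 4.4e-07). These rapamycin values lay under the filter value of 5. PHGDH passed within SKBR3 mainly through groups where it was higher, so its calls within that line rest partly on that choice. With both drugs PHGDH in SKBR3 was 4.73 ± 0.27 against 5.62 ± 0.17 in vehicle (SD), a fall of 0.89 with limma adjusted p = 5.42e-05. In C5.2 it read 6.0, 6.44, 5.91, 5.78 and 6.23 with rapamycin, against 6.73, 7.15, 6.81, 6.83 and 6.98 with vehicle. These groups did not overlap either, at -0.83 ± 0.14 (limma adjusted p = 0.00087), and the difference was -0.68 ± 0.14 with both drugs (limma adjusted p = 0.00251). Leaving out any 1 array kept each of these calls.

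In HB4a PHGDH read 6.54, 7.22, 6.79, 7.13 and 7.33 with rapamycin, against 7.33, 7.55, 7.45, 7.25 and 7.73 with vehicle. The groups overlapped, and the difference of -0.46 ± 0.16 was not called (limma adjusted p = 0.128). Blocking on the experiment number, the same difference was called (limma adjusted p = 0.00179). Doxorubicin alone gave differences of 0.13 in SKBR3, 0.07 in C5.2 and 0.21 in HB4a, with limma adjusted p between 0.426 and 1.

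PSAT1, the aminotransferase of the second step, followed PHGDH in SKBR3. It read 7.06, 6.73, 6.52, 6.87 and 6.44 with rapamycin, against 8.43, 7.73, 7.78, 8.0 and 7.55 with vehicle. No rapamycin array reached the lowest vehicle array, and the difference was -1.17 ± 0.15 (limma adjusted p = 1.13e-05), with -0.83 ± 0.15 for both drugs (limma adjusted p = 0.00062). In C5.2 the PSAT1 groups did not overlap with rapamycin, at 8.12 ± 0.10 against 8.79 ± 0.09 in vehicle (SD), a difference of -0.67 ± 0.15 (limma adjusted p = 0.00411). With both drugs it averaged 8.59 ± 0.31 in C5.2 and was not called (-0.20, limma adjusted p = 0.386). HB4a was called with both drugs, at 8.34, 8.04, 8.47, 8.33 and 8.32 against 8.97, 9.17, 8.65, 8.97 and 8.83 in vehicle. That difference was -0.62 ± 0.13 (limma adjusted p = 0.00155), and the value for rapamycin alone in HB4a, -0.45 ± 0.13, missed the threshold (limma adjusted p = 0.0525) and passed it with the block (limma adjusted p = 0.00875).

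PSPH, the phosphatase that releases serine, fell in C5.2 by 0.42 with rapamycin and by 0.45 with both drugs (limma adjusted p = 0.0129 and 0.00674). Its rapamycin arrays there read 5.78, 5.75, 5.82, 5.99 and 5.94, against 6.41, 6.40, 6.05, 6.25 and 6.25 with vehicle, and the groups did not overlap. In SKBR3 it lay below the filter, averaging 3.53 with rapamycin and 3.87 with vehicle. PSPH has several sequence relatives in the genome, and its probe sets were not checked against them.

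**Figure D2:**
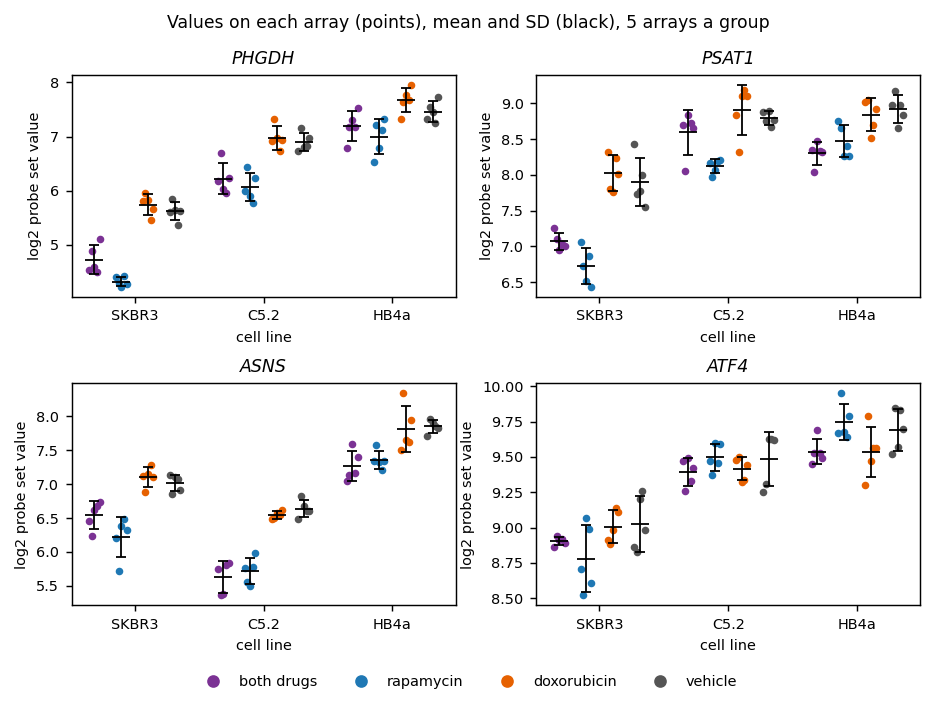
Log2 values of PHGDH, PSAT1, ASNS and ATF4 on each array (points) for SKBR3, C5.2 and HB4a under both drugs, rapamycin, doxorubicin and vehicle, with the group mean and SD of 5 arrays in black. In SKBR3 the rapamycin and combined arrays of PHGDH lie between 4.23 and 5.11, below all vehicle arrays, while those of ATF4 overlap vehicle.

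Serine feeds the one-carbon cycle. SHMT2, the mitochondrial enzyme that splits serine into glycine and a one-carbon unit, fell in C5.2 with rapamycin (-0.54 ± 0.13, limma adjusted p = 0.00714) and with both drugs (-0.55 ± 0.13, limma adjusted p = 0.00483). Its C5.2 rapamycin arrays read 7.74, 7.97, 7.47, 7.44 and 7.75, against 8.12, 8.49, 8.12, 8.12 and 8.2 with vehicle. Each rapamycin array was lower than the lowest vehicle array. In HB4a SHMT2 was 8.14 ± 0.24 with both drugs against 8.51 ± 0.10 with vehicle (SD), which missed the threshold (-0.37, limma adjusted p = 0.0513).

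MTHFD1, the cytosolic enzyme that interconverts folate-bound one-carbon units, was called lower in 5 of the 9 comparisons with vehicle, as was ASNS. It fell with both drugs in all 3 lines, by 0.41 in SKBR3, 0.67 in C5.2 and 0.49 in HB4a (limma adjusted p = 0.000141, 1.16e-05 and 0.000785). With rapamycin it fell by 0.48 in SKBR3 and 0.40 in C5.2 (limma adjusted p = 1.68e-05 and 0.00239). In SKBR3 the rapamycin arrays read 8.16, 7.85, 8.13, 8.14 and 8.04, against 8.53, 8.51, 8.61, 8.57 and 8.53 with vehicle, with a narrow spread in both groups and no overlap. The mean of both MTHFD1 probe sets turned the rapamycin difference in C5.2 to 0.08 (limma adjusted p = 0.68), and the call for both drugs in C5.2 was lost under it too. The second probe set lay below the filter there, at 1.39 with rapamycin and 0.83 with vehicle. MTHFD2, the mitochondrial dehydrogenase that many cancers express, was not called in any of the 9 comparisons. Its means lay between 8.2 and 8.51 in C5.2 and between 9.02 and 9.13 in SKBR3.

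ASNS, which makes asparagine and carries the core element at positions -68 to -61 from its start, fell with rapamycin in SKBR3 and C5.2. In C5.2 it read 5.77, 5.56, 5.5, 5.78 and 5.99 with rapamycin and 5.75, 5.36, 5.38, 5.81 and 5.84 with both drugs, against 6.49, 6.83, 6.68, 6.6 and 6.6 with vehicle. Both treated groups lay wholly below vehicle, with differences of -0.92 ± 0.11 for rapamycin and -1.01 ± 0.11 for both drugs (limma adjusted p = 4.26e-05 and 3.62e-06). In SKBR3 it read 6.21, 5.72, 6.38, 6.48 and 6.33 with rapamycin, against 7.13, 6.86, 7.11, 7.07 and 6.91 with vehicle. These groups did not overlap, at -0.79 ± 0.13 (limma adjusted p = 0.000161). Both drugs gave -0.47 ± 0.13 in SKBR3 (limma adjusted p = 0.0127), and this call was lost without the arrays that stood apart (-0.38, limma adjusted p = 0.16).

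In HB4a ASNS fell with both drugs, reading 7.04, 7.13, 7.60, 7.17 and 7.40 against 7.71, 7.96, 7.91, 7.86 and 7.83 with vehicle (-0.58 ± 0.14, limma adjusted p = 0.00477). Rapamycin alone gave -0.49 ± 0.14 in HB4a, with groups that did not overlap and limma adjusted p = 0.0514, which became 0.00586 with the block. Doxorubicin alone gave 0.10 in SKBR3, -0.10 in C5.2 and -0.04 in HB4a, with no call.

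GOT1, which interconverts aspartate and oxaloacetate and also carries the core element, fell with rapamycin in SKBR3 (-0.52 ± 0.11, limma adjusted p = 0.0026) and C5.2 (-0.64 ± 0.12, limma adjusted p = 0.00112). In C5.2 the rapamycin arrays read 6.19, 6.34, 6.02, 6.10 and 6.46, against 6.75, 7.08, 6.69, 6.87 and 6.93 with vehicle, with no overlap. With both drugs it fell in SKBR3 (-0.43 ± 0.11, limma adjusted p = 0.0117), and in C5.2 and HB4a it was not called (-0.29 and 0.00). ALDH18A1, which starts proline synthesis from glutamate, fell by 0.32 with rapamycin and by 0.33 with both drugs in C5.2 (limma adjusted p = 0.0227 and 0.0169). The rapamycin call was lost without vehicle array 2, rapamycin array 3 or rapamycin array 4 (-0.38 to -0.26 over the arrays left out in turn) and without the arrays that stood apart (-0.27, limma adjusted p = 0.0517). The call for both drugs was lost without vehicle array 2 or combined array 3 (-0.38 to -0.27). PYCR1, the last enzyme of proline synthesis, was not called in any comparison with vehicle, at -0.44 with rapamycin in C5.2 (limma adjusted p = 0.115).

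The amino acid carriers did not move one way. SLC7A5 and SLC3A2 form the heterodimer that brings in leucine and other large neutral amino acids. With both drugs SLC3A2 fell in HB4a, at 6.98, 7.63, 7.30, 7.54 and 7.42 against 7.68, 8.22, 8.12, 8.12 and 7.93 with vehicle (-0.64 ± 0.16, limma adjusted p = 0.00689), and in C5.2 (-0.40 ± 0.10, limma adjusted p = 0.00981). Its groups did not overlap in either line. SLC7A5 fell in C5.2 with rapamycin (-0.67 ± 0.11, limma adjusted p = 0.000659) and with both drugs (-0.58 ± 0.11, limma adjusted p = 0.00109). In HB4a it fell with both drugs (-0.55 ± 0.16, limma adjusted p = 0.018), a call lost without vehicle array 4 (-0.64 to -0.43 over the arrays left out in turn). Neither subunit was called in SKBR3, where SLC7A5 was -0.18 with rapamycin and 0.06 with both drugs.

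SLC38A2, a glutamine and alanine carrier that cells are known to raise when amino acids are short, rose with rapamycin in C5.2. It read 9.01, 8.14, 9.18, 8.98 and 9.03 with rapamycin, against 8.25, 7.87, 8.27, 7.82 and 8.15 with vehicle (0.80 ± 0.22, limma adjusted p = 0.0164). Rapamycin array 2 was the low one and the groups overlapped there, and the call was lost without rapamycin array 3 (0.72 to 0.98 over the arrays left out in turn). In HB4a the values were 9.13, 7.22, 7.96, 7.74 and 7.22 with rapamycin, against 7.49, 6.04, 6.84, 6.67 and 6.94 with vehicle. The array of experiment 1 was the highest of both groups, and the difference of 1.06 ± 0.35 was not called (limma adjusted p = 0.114) but was called with the block (limma adjusted p = 0.000732). With both drugs SLC38A2 differed from vehicle by -0.05 in SKBR3, 0.20 in C5.2 and 0.32 in HB4a, with no call.

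SLC38A1, a related glutamine carrier, fell in C5.2 with both drugs, at 4.33, 4.0, 4.61, 5.02 and 5.54 against 5.79, 5.27, 5.25, 5.29 and 5.68 with vehicle (-0.76 ± 0.23, limma adjusted p = 0.0248). The call was lost without vehicle array 1 or 6 or combined array 1, 2 or 3 (-0.97 to -0.58). Combined arrays 1, 2 and 3 lay under the filter value of 5, so SLC38A1 passed there mainly through groups where it was higher. SLC7A1, the cationic amino acid carrier, fell in C5.2 with both drugs (-0.32 ± 0.08, limma adjusted p = 0.00976). SLC1A4 and SLC1A5, the neutral amino acid exchangers, were not called in any treatment comparison in which they were tested.

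ATF4 mRNA averaged between 8.78 and 9.75 over the 12 groups. In SKBR3 it read 8.71, 8.52, 9.07, 8.99 and 8.61 with rapamycin, against 8.86, 8.83, 9.20, 9.26 and 8.98 with vehicle, and the groups overlapped (-0.24 ± 0.10, limma adjusted p = 0.108). This was the largest of the 9 ATF4 differences from vehicle, and it passed the threshold with the block (limma adjusted p = 0.0128). In C5.2 the rapamycin difference was 0.01 ± 0.08 and in HB4a 0.05 ± 0.09. On the C5.2 arrays where PHGDH, PSAT1 and ASNS fell, ATF4 mRNA averaged 9.50 with rapamycin and 9.49 with vehicle.

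ATF5, an ATF4 relative that is also an ATF4 target, was the member that rose with doxorubicin. In HB4a it read 7.41, 7.61, 7.56, 7.72 and 7.32 with doxorubicin, against 6.70, 6.82, 6.47, 6.91 and 6.96 with vehicle, and the groups did not overlap (0.75 ± 0.13, limma adjusted p = 0.000506). In C5.2 it read 7.08, 6.80, 7.06, 7.0 and 7.15 with doxorubicin, against 6.33, 6.80, 6.29, 6.51 and 6.51 with vehicle (0.53 ± 0.10, limma adjusted p = 0.0067). Both drugs gave 0.74 ± 0.13 in HB4a (limma adjusted p = 0.000306) and 0.34 ± 0.10 in C5.2 (limma adjusted p = 0.0252). The last call was lost without vehicle array 1 or 3 or combined array 4 or 6 (0.28 to 0.42). In SKBR3 ATF5 averaged 5.05 ± 0.14 with doxorubicin and 4.84 ± 0.29 with vehicle (SD) and was not called, and the test of its doxorubicin response in SKBR3 against HB4a gave limma adjusted p = 0.131.

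PPP1R15A, the phosphatase subunit that reverses eIF2 alpha phosphorylation, rose with both drugs in C5.2 (0.55 ± 0.12, limma adjusted p = 0.00388) and HB4a (0.89 ± 0.15, limma adjusted p = 0.000309). In HB4a it read 5.36, 5.61, 5.54, 5.63 and 5.57 with both drugs, against 4.30, 5.03, 4.54, 4.82 and 4.59 with vehicle, with no overlap. Most of these vehicle values lay under the filter value of 5. PPP1R15A thus passed in HB4a mainly through treated arrays where it was higher, and its calls there rest partly on that choice. Rapamycin alone gave 0.38 ± 0.12 in C5.2 (limma adjusted p = 0.0383) and 0.55 ± 0.15 in HB4a (limma adjusted p = 0.0468). Each of these rapamycin calls was lost without any 1 of 8 arrays: in C5.2 vehicle 1, 2, 4 or 6 and rapamycin 1, 2, 3 or 6 (0.29 to 0.44), and in HB4a vehicle 1, 3, 4 or 6 and rapamycin 2, 3, 4 or 6 (0.46 to 0.67). In SKBR3 PPP1R15A lay below the filter, at 3.36 with both drugs and 2.96 with vehicle.

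TRIB3, a pseudokinase that dampens ATF4, fell in C5.2 with rapamycin, at 5.74, 6.05, 5.37, 5.60 and 5.85 against 6.09, 6.54, 5.89, 6.08 and 6.14 with vehicle (-0.42 ± 0.14, limma adjusted p = 0.0463). The groups overlapped, and the call was lost without vehicle array 1, 2, 4 or 6 or rapamycin array 1, 3 or 4 (-0.51 to -0.33). NUPR1, a small stress-induced chromatin protein, rose in SKBR3 with both drugs, at 6.62, 6.90, 7.16, 7.22 and 7.30 against 6.61, 6.40, 6.75, 6.71 and 6.49 (0.45 ± 0.16, limma adjusted p = 0.0487). This call too was lost without any 1 of 9 arrays, every vehicle array and combined arrays 2, 3, 4 and 6 (0.38 to 0.56). CEBPB, a C/EBP partner of ATF4, fell in HB4a with both drugs (-0.28 ± 0.09, limma adjusted p = 0.0362), lost without vehicle array 3, 4 or 6 or combined array 1, 2 or 4 (-0.31 to -0.22). CEBPG and JDP2, leucine zipper proteins that pair with ATF4 or its relatives, had no call against vehicle.

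DDIT3, the proapoptotic factor also called CHOP, did not pass the filter in any line. In SKBR3 it read 3.42, 3.84, 3.63, 4.04 and 3.94 with rapamycin and 4.49, 4.45, 4.08, 4.80 and 4.71 with doxorubicin, against 4.17, 4.20, 4.17, 4.15 and 4.25 with vehicle. All rapamycin arrays lay below the vehicle arrays and 4 of the 5 doxorubicin arrays lay above them. Fitted with no filter, DDIT3 in SKBR3 was not called with rapamycin (-0.41, limma adjusted p = 0.0774) or doxorubicin (0.32, limma adjusted p = 0.811).

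**Figure D3:**
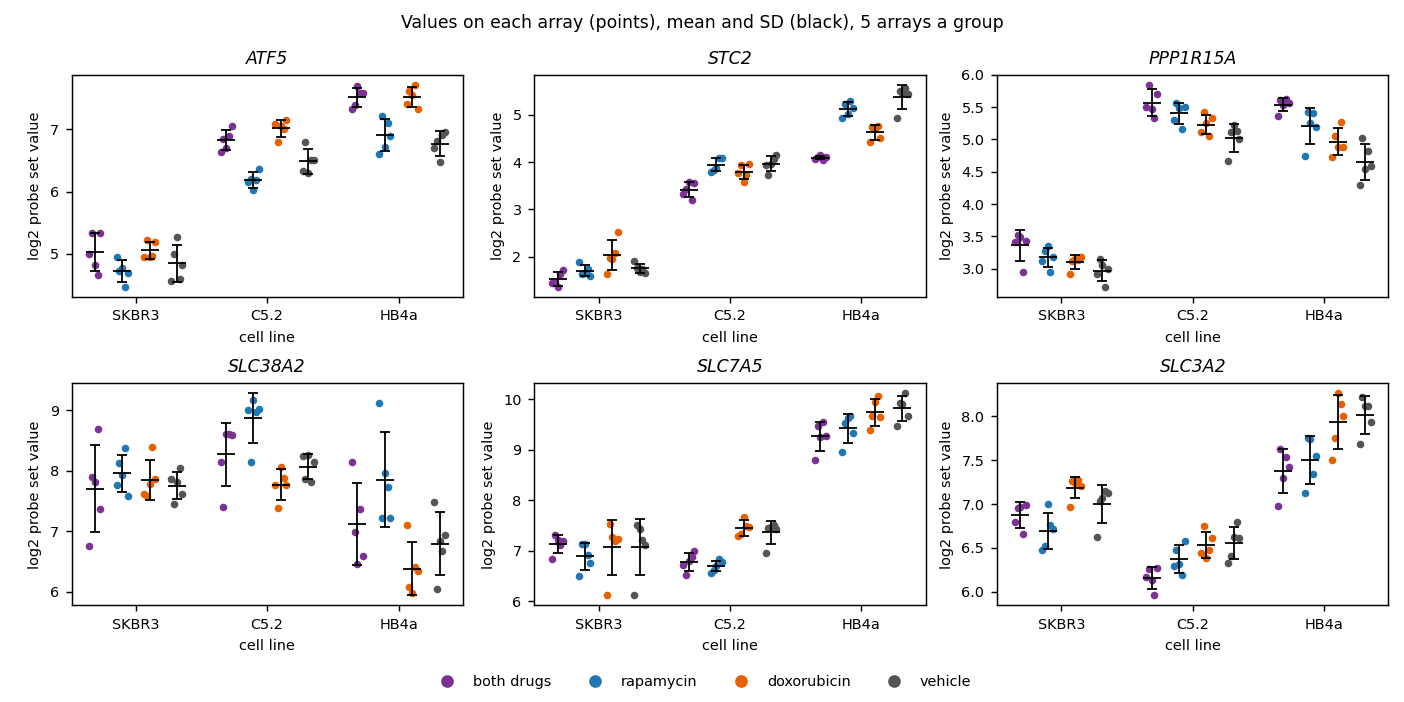
Log2 values of ATF5, STC2, PPP1R15A, SLC38A2, SLC7A5 and SLC3A2 on each array (points) under both drugs, rapamycin, doxorubicin and vehicle in SKBR3, C5.2 and HB4a, with the mean and SD of 5 arrays. The doxorubicin arrays of ATF5 in HB4a lie between 7.32 and 7.72, above all vehicle arrays, and the combined arrays of STC2 in HB4a lie between 4.04 and 4.14.

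STC2, a secreted glycoprotein that is an ATF4 target, showed the largest called fall of any member in HB4a. It read 4.07, 4.11, 4.14, 4.04 and 4.10 with both drugs and 4.43, 4.73, 4.70, 4.77 and 4.50 with doxorubicin, against 4.93, 5.51, 5.45, 5.57 and 5.43 with vehicle. Neither treated group overlapped vehicle. Both treated groups lay wholly under the filter value of 5. STC2 passed in HB4a through the vehicle and rapamycin arrays, where it was higher, so its calls there rest partly on that choice. The difference was -1.28 ± 0.13 with both drugs (limma adjusted p = 6.28e-07) and -0.75 ± 0.13 with doxorubicin (limma adjusted p = 0.000662), and leaving out vehicle array 1, the lowest, kept both calls. Rapamycin alone gave 5.12 ± 0.15 in HB4a, against 5.38 ± 0.26 in vehicle (SD), without a call. In C5.2 STC2 lay below the filter, at 3.42 ± 0.16 with both drugs and 3.97 ± 0.16 with vehicle, and in SKBR3 it lay close to the array medians, at 1.52 ± 0.14 and 1.75 ± 0.10 (SD).

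XPOT, which exports tRNA from the nucleus, fell in SKBR3 with both drugs, at 5.66, 5.53, 5.53, 6.22 and 5.24 against 6.83, 5.75, 6.30, 6.79 and 6.0 with vehicle (-0.70 ± 0.24, limma adjusted p = 0.044). The call was lost without vehicle array 1, 3 or 4 or combined array 1, 2, 3 or 6 (-0.84 to -0.57), and without the arrays that stood apart (-0.55, limma adjusted p = 0.269). XPOT, SLC38A1 and SLC38A2 shared high values on array 1 of HB4a: in the rapamycin group that array read 7.07, 6.91 and 9.13 for the 3 genes, against highest values of 5.77, 5.12 and 7.96 on the other arrays. HERPUD1, which carries both elements described above, was not called in any comparison with vehicle, and its largest difference was -0.34 ± 0.11 with doxorubicin in SKBR3 (limma adjusted p = 0.253).

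Set against doxorubicin alone, the combination was lower in ASNS in all 3 lines, in PHGDH in SKBR3 and C5.2, and in PSAT1 in SKBR3 and HB4a. In SKBR3, PHGDH was -1.02 ± 0.13, PSAT1 -0.95 ± 0.15 and ASNS -0.57 ± 0.13 (limma adjusted p = 1.38e-05, 0.000136 and 0.00334), among 0 members higher and 5 lower (22% of all genes called, 7.41% higher and 14.6% lower). In C5.2, ASNS was -0.91 ± 0.11 and PHGDH -0.76 ± 0.14 (limma adjusted p = 4.93e-05 and 0.00266), among 0 higher and 7 lower (13.5% called, 1.73% higher and 11.8% lower). In HB4a 1 was higher and 3 lower (2.58% called, 1.15% higher and 1.43% lower). PPP1R15A was the higher one (0.58), a call lost in 8 of 10 runs that left out 1 array (0.52 to 0.65). PSAT1 was -0.54 ± 0.13 (limma adjusted p = 0.0201), lost without doxorubicin array 2 or 6 or combined array 2 (-0.62 to -0.47), and ASNS was -0.54 ± 0.14 (limma adjusted p = 0.0323), lost without doxorubicin array 2 or 6 or combined array 1, 2 or 4 (-0.63 to -0.41). Blocked on the experiment number, the counts were 12 of 24 in SKBR3, where 49.6% of all genes were called, and 16 of 25 in C5.2, where 38% were.

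Against rapamycin alone, limma called 0 members in SKBR3 (0.552% of all genes called, all of them higher, and 4 members at an unadjusted p under 0.05), where the arrays were paired and the block called 5 (6.64% of all genes). Those 5 were CEBPB (0.34), PHGDH (0.40), PSAT1 (0.35), ASNS (0.32) and SLC7A1 (0.24), all higher with both drugs, named after their values were seen. In C5.2, 1 was higher and 2 lower (6.39% called, 4.82% higher and 1.57% lower, and 8 members called with the block, against 22.2% of all genes). ATF5 was higher with both drugs than with rapamycin in C5.2 (0.64 ± 0.10, limma adjusted p = 0.00052) and in HB4a (0.60 ± 0.13, limma adjusted p = 0.00403). In HB4a 1 was higher and 3 lower (8.84% called, 5.66% higher and 3.18% lower), and STC2 was -1.03 ± 0.13 (limma adjusted p = 2.48e-05). The 2 lower members in C5.2 were SLC38A1 (-0.85, lost in 6 of 10 runs that left out 1 array, -1.06 to -0.67) and MTHFD1 (-0.27, lost in 8 of 10, -0.33 to -0.22, and lost without the arrays that stood apart, at -0.25 with limma adjusted p = 0.0721).

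Without drug the lines differed widely in these genes, and so did a large share of all genes tested. SKBR3 had 9 members higher and 17 lower than HB4a of 28 tested (77.3% of all genes called, 37.6% higher and 39.7% lower), and 10 higher and 10 lower than C5.2 of 27 (78.8% called, 36.2% higher and 42.6% lower). C5.2 had 5 higher and 10 lower than HB4a of 27 (49.2% called, 29.3% higher and 19.9% lower). Some of these members passed the filter only through the line where they were higher, as stated with them. All 3 serine enzymes were lower in SKBR3 than in HB4a: PHGDH was 5.62 ± 0.17 in SKBR3, 6.90 ± 0.17 in C5.2 and 7.46 ± 0.19 in HB4a, and PSPH was 3.87 ± 0.21, 6.27 ± 0.15 and 6.38 ± 0.38 in the same lines (SD). The difference of SKBR3 from HB4a was -1.84 ± 0.14 for PHGDH and -2.51 ± 0.18 for PSPH (limma adjusted p = 2.26e-14 and 1.1e-15). PSPH lay below the filter within SKBR3 and passed it here through HB4a, so its call rests partly on that choice. PSPH in C5.2 was not called against HB4a (-0.11 ± 0.16, limma adjusted p = 0.582). ASNS was lowest in C5.2, at 6.64 ± 0.13, with 7.01 ± 0.12 in SKBR3 and 7.85 ± 0.10 in HB4a (SD).

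The regulators split. TRIB3 read 8.37, 9.41, 9.21, 9.14 and 9.24 in SKBR3, against 6.43, 6.68, 6.63, 6.88 and 6.86 in HB4a (2.38 ± 0.19, limma adjusted p = 3.77e-14), and C5.2 lay at 6.15 ± 0.24 (SD). NUPR1 read 6.61, 6.40, 6.75, 6.71 and 6.49 in SKBR3 and 3.98, 4.27, 5.15, 5.00 and 4.92 in C5.2, against 2.87, 2.53, 3.32, 3.54 and 3.16 in HB4a. The 3 lines did not overlap for NUPR1, with differences from HB4a of 3.50 ± 0.22 in SKBR3 and 1.58 ± 0.29 in C5.2 (limma adjusted p = 6.71e-17 and 1.74e-05). The HB4a values of NUPR1 shown here all lay under the filter value of 5, so these calls rest partly on the line where it was higher. JDP2 was higher in C5.2 than in HB4a (1.44 ± 0.16, limma adjusted p = 1.76e-09) and lower in SKBR3 than in C5.2 (-1.88 ± 0.13, limma adjusted p = 1.13e-15). PPP1R15A was lower in SKBR3 than in C5.2 (-2.06 ± 0.12, limma adjusted p = 3.72e-18), as was PSPH (-2.40), while SLC38A1 (3.15), TRIB3 (2.93) and NUPR1 (1.93) were higher. PPP1R15A and PSPH lay below the filter within SKBR3 and passed it here through C5.2. ATF4 mRNA was 9.03 ± 0.19 in SKBR3 and 9.49 ± 0.19 in C5.2, against 9.70 ± 0.15 in HB4a (SD). Its difference from HB4a was -0.67 ± 0.10 in SKBR3 (limma adjusted p = 9.42e-08) and -0.21 ± 0.08 in C5.2 (limma adjusted p = 0.0407), the second lost without HB4a array 2, 4 or 6 or C5.2 array 1 or 2 (-0.25 to -0.15).

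**Figure D4:**
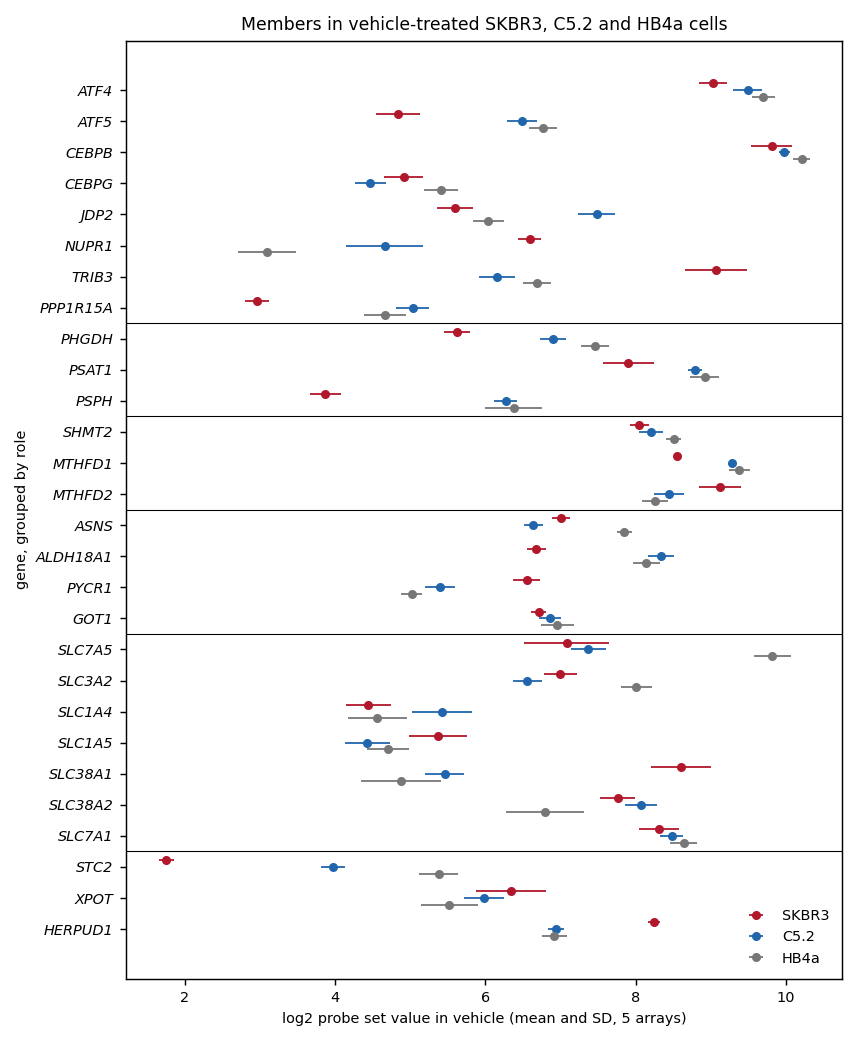
Mean log2 value and SD (5 arrays) of the 28 tested members in vehicle-treated SKBR3 (red), C5.2 (blue) and HB4a (grey), grouped by role. SKBR3 stands above HB4a for TRIB3, NUPR1 and SLC38A1 and below it for SLC7A5, PSPH and STC2, and levels are compared within a gene, since probe sets of different genes differ in brightness.

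Carriers divided the lines as well. SLC38A1 read 8.97, 7.98, 8.62, 8.95 and 8.53 in SKBR3, against 5.58, 4.42, 4.68, 4.42 and 5.28 in HB4a (3.73 ± 0.35, limma adjusted p = 5.26e-12). SLC7A5 read 6.12, 7.51, 7.44, 7.21 and 7.12 in SKBR3 and 6.96, 7.45, 7.47, 7.52 and 7.44 in C5.2, against 9.48, 9.93, 9.90, 10.12 and 9.68 in HB4a. Both HER-2 lines lay wholly below HB4a, by -2.74 ± 0.21 in SKBR3 and -2.46 ± 0.14 in C5.2 (limma adjusted p = 2.05e-14 and 1.17e-17). Its partner SLC3A2 was -1.01 ± 0.14 in SKBR3 and -1.46 ± 0.14 in C5.2 (limma adjusted p = 3.97e-08 and 1.4e-11). SLC38A2 was higher in C5.2 than in HB4a (1.28 ± 0.30, limma adjusted p = 0.000632). STC2 was lower than HB4a in both HER-2 lines, by -3.63 ± 0.13 in SKBR3 and -1.41 ± 0.12 in C5.2 (limma adjusted p = 2.72e-25 and 6.83e-13). Within both HER-2 lines STC2 lay below the filter, and it passed here through HB4a, so these calls rest partly on that choice.

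Whether a line's response differed from that of HB4a was tested as a difference of differences. With rapamycin 2 of 28 members were called in SKBR3 against HB4a, and this share of 7.14% lies near the 5.03% of all genes called. Both members fell further in SKBR3: PHGDH by -0.83 ± 0.20 (limma adjusted p = 0.00889) and PSAT1 by -0.72 ± 0.20 (limma adjusted p = 0.0236). The PSAT1 call was lost without HB4a vehicle array 3, HB4a rapamycin array 1, SKBR3 vehicle array 1 or SKBR3 rapamycin array 3 or 6 (-0.81 to -0.59), and without the arrays that stood apart (-0.61, limma adjusted p = 0.117). With both drugs PHGDH was called again (-0.63 ± 0.20, limma adjusted p = 0.0422), and this was lost without the arrays that stood apart (-0.64, limma adjusted p = 0.0541) and in 15 of 20 runs that left out 1 array (-0.73 to -0.54), holding without HB4a vehicle array 6, HB4a combined array 1, SKBR3 vehicle array 4 or SKBR3 combined array 2 or 6. ASNS was not called for either, at -0.30 ± 0.19 with rapamycin (limma adjusted p = 0.443).

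STC2 accounted for the remaining calls, 1 for doxorubicin (3.87% of all genes called) and 1 for both drugs (9.82% called) in SKBR3. It passed the filter through HB4a, and in vehicle-treated SKBR3 it averaged 1.75, near the array medians, so a fall there could hardly be measured. The values of 1.03 for doxorubicin and 1.06 for both drugs are therefore not read as a difference in response. In C5.2, where it lay above background but below the filter, its response to both drugs differed from HB4a by 0.74 ± 0.17 (limma adjusted p = 0.0301, 0.373% of all genes called), which was lost without HB4a vehicle array 2, 3 or 4, HB4a combined array 4 or 6, C5.2 vehicle array 2 or 3 or C5.2 combined array 3 or 6 (0.68 to 0.85). For the responses to doxorubicin and to rapamycin in C5.2 against HB4a, limma called 0 members (0.101% and 0% of all genes), with 1 and 5 at an unadjusted p under 0.05. For rapamycin in C5.2 against HB4a, PHGDH was at -0.37 ± 0.22 and PSAT1 at -0.22 ± 0.20, neither called.

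Of the 11 members that passed the filter nowhere, MTHFD1L, ALDH1L2 and SLC6A9 had group means under 0.9, below the array medians. CBS and CTH, the transsulfuration enzymes, lay between 2.92 and 4.49 and between 3.13 and 4.21, and CHAC1 between 2.78 and 4.52. SLC7A11, the cystine carrier, averaged 1.87 in vehicle-treated SKBR3 and 2.89 in C5.2, against 1.39 in HB4a, where it was at background, so C5.2 lay at least 1.22 above HB4a. SLC43A1, a further neutral amino acid carrier, averaged 0.99 in vehicle-treated SKBR3, at background, against 4.01 in C5.2, a difference of at least 2.51 below C5.2. It averaged 1.82 in HB4a. SHMT1 and VLDLR had group means from 0.95 to 2.24 and from 0.87 to 3.46. In a fit with no filter VLDLR, the very low density lipoprotein receptor, was lower with rapamycin in SKBR3 (-0.71, limma adjusted p = 0.011) and HB4a (-0.79, limma adjusted p = 0.00256), and CBS in SKBR3 (-0.54, limma adjusted p = 0.0115) and C5.2 (-0.41, limma adjusted p = 0.046).

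Other genes of the same pathways, from lists drawn up with earlier results of these data known, were counted in the same fits. Of 17 tested cytosolic aminoacyl-tRNA synthetases, which charge amino acids onto tRNA, 0 rose and 7 fell with rapamycin in SKBR3, 0 and 11 in C5.2, and limma called 0 in HB4a (4 at an unadjusted p under 0.05), where 10.8%, 14.6% and 1.1% of all genes fell. With both drugs 5, 11 and 5 fell and 0 rose in these lines, where 13.6%, 14.6% and 6.49% of all genes fell. VARS1, the valine enzyme, fell in C5.2 by 0.90 with rapamycin and by 1.19 with both drugs (limma adjusted p = 0.00071 and 2e-05). Of the chaperones of the endoplasmic reticulum controlled by XBP1 and ATF6, 2 of 18 fell with rapamycin in SKBR3, 8 of 16 in C5.2 and 2 of 15 in HB4a, and 0 rose. Against the same shares of all genes, the SKBR3 count lies at the background. Of the eIF2 alpha kinases, eIF2B subunits and their regulators, 1 of 11 fell in SKBR3 and 4 of 11 in C5.2, and limma called 0 of 11 in HB4a (0 at an unadjusted p under 0.05), and the SKBR3 count again lies at the background of 10.8%.

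Further reported ATF4 targets went both ways. The stress factor ATF3 rose with both drugs by 1.18 in SKBR3, 2.06 in C5.2 and 2.7 in HB4a (limma adjusted p = 0.00417, 1.16e-05 and 4.91e-07). DDIT4, an mTORC1 inhibitor, fell by 0.79, 1.53 and 2.08 in the same lines (limma adjusted p = 7.35e-06, 1.73e-08 and 4.85e-07). Among other one-carbon and methionine genes, 3 of 14 fell with rapamycin in SKBR3, 3 of 19 in C5.2 and 1 of 18 in HB4a, and 0 rose. The C5.2 count lies near the 14.6% of all genes that fell there. TYMS, thymidylate synthase, fell in SKBR3 with rapamycin by 1.25 (limma adjusted p = 9.31e-08), and MTHFD2L, the mitochondrial relative of MTHFD2, fell by 0.84 in C5.2 and 0.60 in HB4a (limma adjusted p = 0.0024 and 0.00848). Of other amino acid carriers, limma called 0 of 8 in SKBR3, 0 of 7 in C5.2 and 0 of 4 in HB4a with rapamycin (2, 0 and 1 at an unadjusted p under 0.05).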

How the data were processed

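RNA of 3 cell lines under 4 conditions was hybridised to 60 arrays, 5 per group. The authors deposited log2 probe set values made with RMA (version not given), per the submitters' processing notes. That the base is 2 follows only from the values, -0.60 to 13.08, whose floor is lower than RMA usually gives, and no scan dates or batches are given. The labels use the name DRC both for the vehicle arrays and, in the treatment text, for the drug pair; these arrays are taken here as vehicle since their source names say DMSO, and doses are in nM as there.

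Of 54675 probe sets, 41091 carried 1 symbol in the platform annotation (updated by gene identifier). Another 1801 with several symbols, 11721 unnamed and 62 control probe sets were left out. Of the 39 genes, 25 had several probe sets and the brightest was used. limma 3.58.1 (R 4.3.3, empirical Bayes with trend, 2-sided) was fitted to the 20 arrays of a line, or to 40 for line and response differences. Calls used an adjusted p under 0.05 over all genes above log2 5 on at least 5 arrays. The fits were tested on simulated data. The replicate number gives separate experiments per the labels, and numbers were taken as pairs where every pair's deviations correlated above 0.1. This held in all SKBR3 comparisons (lowest 0.238), for single drugs in HB4a and C5.2, for both drugs against each drug in C5.2, and for C5.2 against HB4a in vehicle. Pairs failed this in HB4a comparisons that include the combined group (lowest -0.569), for both drugs against vehicle in C5.2 (-0.1), and for SKBR3 against HB4a (-0.116) and C5.2 (-0.063). Where at least 2 arrays of a group lay at or under their array medians, a difference is given as "at least". Alternatives were to test every gene or only those above log2 7, to average a gene's probe sets, quantile normalization, the replicate block, all 60 arrays in 1 fit, leaving out arrays that stood apart, and each array left out in turn. The number of arrays limits precision.

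The members and lists were chosen with earlier results of these data known. Set by rule to be named with array values were ATF4, ASNS, PHGDH, DDIT3 and TRIB3, and the 2 (lines: 3) largest called members in each direction of a comparison. Any other member was named after its values were seen. So were array values outside the rule, such as PSPH, SHMT2 and GOT1 with rapamycin in C5.2, MTHFD1 with rapamycin and XPOT with both drugs in SKBR3. Of the other lists, only the largest called rise or fall of a comparison was named. Promoters came from RefSeq, GRCh38.p14. Tables and plots used Python 3.11.15, pandas 2.3.3, numpy 2.4.6 and matplotlib 3.10.9.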

Additional observations from a re-analysis of the deposited data

Results flagged for a closer look

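Of 153 groups of 5 arrays tested for members that were called, 11 held an array whose gap to its nearest neighbour exceeded Dixon's critical share of 0.71 of the group's range; chance flags about 1 group in 20. Of these arrays 6 were the vehicle array of experiment 1 in SKBR3, where CEBPB read 9.33 (others 9.86 to 9.96), JDP2 5.18 (5.61 to 5.76), SLC3A2 6.62 (7.04 to 7.15), SLC7A1 7.84 (8.38 to 8.49), SLC7A5 6.12 (7.12 to 7.51) and TRIB3 8.37 (9.14 to 9.41), each below the other 4 arrays. In C5.2 the vehicle array 1 read 8.78 for MTHFD2 (8.26 to 8.40) and 6.96 for SLC7A5 (7.44 to 7.52), the vehicle array 2 read 8.49 for SHMT2 (8.12 to 8.2), and the rapamycin array 2 read 8.14 for SLC38A2 (8.98 to 9.18). In HB4a the vehicle array 1 read 4.93 for STC2 (5.43 to 5.57). The cause of these values was not tested.

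For 3 members limma's test of the difference between line responses was called. PHGDH fell further in SKBR3 than in HB4a with rapamycin (-0.83, adjusted p = 0.00889) and with both drugs (-0.63, adjusted p = 0.0422), and PSAT1 fell further with rapamycin (-0.72, adjusted p = 0.0236). The PHGDH call with both drugs and the PSAT1 call were lost without the arrays that stood apart. The first was also lost in most runs that left out 1 array, and the second in some. In each response 7.14% of members were called, against 5.03% of all genes with rapamycin and 9.82% with both drugs. For STC2 the difference of responses against HB4a was 1.03 with doxorubicin and 1.06 with both drugs in SKBR3, where STC2 lay near the array medians and could hardly fall, so these are not read as a difference in response. In C5.2 it was 0.74 with both drugs (adjusted p = 0.0301), where STC2 lay below the filter but above background.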

How the results depend on the processing

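Of 2318 repeats of the 139 member calls, 2077 kept direction and call, 239 lost the call and 2 turned the direction. Of these calls 100 held under every alternative and 105 whichever array was left out. Both reversals came with the mean of all probe sets, for MTHFD1 with rapamycin in C5.2 (0.079) and CEBPG in SKBR3 against HB4a (0.12). The second probe set, below the filter for both genes, differed by 0.56 for MTHFD1 and by 0.75 for CEBPG. The brightest ones differed by -0.40 and -0.50. Why the probe sets differ was not tested.

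Counts of called members moved by over 1.5 times as follows, against the counts in the report. They are given without the share of all genes called under the same setting, except for the block, and nothing particular to the members is read from them. With all 60 arrays in 1 fit they were 4 for doxorubicin and 4 for rapamycin in HB4a, 7 for both drugs against doxorubicin in HB4a, 2 for doxorubicin in C5.2, and 2 and 4 for the SKBR3 responses to doxorubicin and to both drugs. With a filter at log2 7 they were 1 (doxorubicin) and 2 (rapamycin) in HB4a. In C5.2 that filter gave 6 (rapamycin), 6 (both drugs) and 3 (both drugs against doxorubicin), and in SKBR3 3 (rapamycin) and 3 (both drugs against doxorubicin). It gave 9 for C5.2 against HB4a, 13 for SKBR3 against C5.2, 0 for the C5.2 response to both drugs, and 0 and 1 for the SKBR3 responses to doxorubicin and to both drugs. With the mean of all probe sets they were 1, 5, 1 and 2 in HB4a (doxorubicin, both drugs, both against doxorubicin, both against rapamycin), 0, 6, 5 and 1 in C5.2 (doxorubicin, rapamycin, both drugs, both against rapamycin), 0 for the C5.2 response to both drugs, and 0, 1 and 1 for the SKBR3 responses to doxorubicin, rapamycin and both. With no filter they were 2 for both drugs against rapamycin in HB4a, 8 for rapamycin and 8 for both drugs against doxorubicin in SKBR3, and 1 for the SKBR3 response to both. Quantile normalization gave 2 for rapamycin in HB4a, 4 for both drugs against doxorubicin in C5.2, and 2 and 5 for the SKBR3 responses to doxorubicin and both. Without the arrays that stood apart they were 5 for doxorubicin and 7 for both against doxorubicin in HB4a, 2 for doxorubicin in C5.2, 1 for doxorubicin and 1 for both against rapamycin in SKBR3, and 2 and 1 for the SKBR3 responses to doxorubicin and rapamycin.

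With the replicate block, counts were 9 (doxorubicin), 10 (rapamycin), 16 (both drugs), 11 (both against doxorubicin) and 12 (both against rapamycin) in HB4a, 4, 20, 16 and 8 in C5.2 (doxorubicin, both drugs, both against doxorubicin, both against rapamycin), and 3, 12, 12 and 5 in SKBR3 (doxorubicin, rapamycin, both against doxorubicin, both against rapamycin). Responses gave 2, 1 and 3 in C5.2 and 8, 9 and 14 in SKBR3 (doxorubicin, rapamycin, both). The block without the combined group, added after seeing the data, gave 10 and 9 for doxorubicin and rapamycin in HB4a. Shares of all genes called under the block were 32.7%, 16.3%, 37.4%, 15.8% and 28.4% in HB4a, 17.4%, 43.3%, 38% and 22.2% in C5.2 and 5%, 41.8%, 49.6% and 6.64% in SKBR3, in the order of the counts. For responses they were 1.97%, 2.53% and 10% in C5.2 and 15.9%, 22.5% and 31.9% in SKBR3. No call was lost under the block. Without the arrays that stood apart, calls lost and not described above were MTHFD1 for both drugs against rapamycin in HB4a (-0.3), GOT1 for both drugs against doxorubicin in C5.2 (-0.32) and PPP1R15A for C5.2 against HB4a (0.26).

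Leaving out 1 array at a time, counts ranged in HB4a from 2 to 3 (doxorubicin), 0 to 2 (rapamycin), 7 to 10 (both drugs), 0 to 5 (both against doxorubicin) and 2 to 5 (both against rapamycin), in C5.2 from 1 to 1, 8 to 13, 10 to 13, 5 to 9 and 1 to 4, and in SKBR3 from 0 to 0, 5 to 8, 5 to 7, 5 to 8 and 0 to 0, in the same order. For lines they ranged from 12 to 15 (C5.2 against HB4a), 22 to 27 (SKBR3 against HB4a) and 19 to 20 (SKBR3 against C5.2), and for responses from 0 to 0, 0 to 0 and 0 to 1 in C5.2 and 1 to 2, 1 to 3 and 1 to 3 in SKBR3. These ranges, and the counts that follow, are given without the share of all genes called in the same runs. Nothing particular to the members is read from them. The count with rapamycin in SKBR3 was 8 without rapamycin array 3, and that for both drugs against doxorubicin was 8 without combined array 4. In HB4a the rapamycin count was 0 without vehicle array 1, 4 or 6 or rapamycin array 3, 4 or 6, and 2 without rapamycin array 1 or 2. The HB4a count for both drugs against doxorubicin was 0 without doxorubicin or combined array 2, 1 without doxorubicin array 6 or combined array 4, and 2 without doxorubicin array 3 or combined array 1 or 6. For both drugs against rapamycin it was 2 in HB4a without rapamycin array 4 or combined array 2 or 4, and 1 in C5.2 without rapamycin array 3 or 4 or combined array 3. The SKBR3 response to doxorubicin counted 2 without HB4a doxorubicin array 2 or SKBR3 doxorubicin array 1. The SKBR3 response to both drugs counted 1 without HB4a vehicle array 3 or 4, HB4a combined array 2, 3, 4 or 6, SKBR3 vehicle array 2, 3 or 6, or SKBR3 combined array 3 or 4. The number of arrays limits precision, and 11 members lay below the filter in every line.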

Other observations

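SLC43A1 and JDP2 stood higher in C5.2 than in both of the other lines. JDP2 averaged 7.48 in vehicle-treated C5.2, against 5.60 in SKBR3 and 6.04 in HB4a. SLC43A1 averaged 4.01 in C5.2, against 0.99 in SKBR3 and 1.82 in HB4a, and was below the filter throughout. PYCR1, HERPUD1 and MTHFD2 stood higher in SKBR3 than in HB4a, by 1.53 ± 0.13, 1.33 ± 0.11 and 0.87 ± 0.14 (SE, limma adjusted p = 1.26e-13, 3.18e-13 and 1.44e-06), while ALDH18A1, the enzyme that feeds PYCR1, was lower (-1.46 ± 0.13, limma adjusted p = 3.89e-13).

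For 10 members with a call, a further probe set also passed the filter, and 41 of 42 differences had the same sign as the brightest one. The exception was a second ATF5 probe set for C5.2 against HB4a in vehicle (0.08 against -0.28).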
